A study of Sus scrofa with 6 samples.

Results

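In porcine oocytes matured under heat stress, 53 named genes kept about their control level after heat alone and lay at another level once nicotinamide mononucleotide (NMN) was added, with 17 of them higher and 36 lower. The genes were chosen from the measured values themselves. A gene was taken when its mean over the 6 samples was at least 1 FPKM, its heat-stressed and control means differed by less than 0.2 on the log2(FPKM + 1) scale, both NMN-supplemented samples lay above or both below all 4 other samples, and its NMN-supplemented and heat-stressed means differed by at least 0.5 on that scale. FPKM is the number of sequenced fragments scaled to the length of the transcript and to all mapped fragments of the library. Of 29861 genes in the table, 4713 passed the minimum of 1 FPKM, 2031 of those met the limit on heat stress, and 860 of those had both NMN-supplemented samples outside the other 4. The fold limit left 93 genes, of which 40 were set aside because their names begin with the letters of large families or of uncharacterised loci. Of these 40, 32 carry names beginning with LOC.

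Before the removal by name, 25 genes were higher and 68 lower, which are 0.53% and 1.44% of the tested genes. After it the 17 and 36 genes are 0.489% and 1.03% of the tested genes whose names were kept. Over all tested genes, both NMN-supplemented samples lay above the other 4 in 28.0% and below them in 12.7%. Since the choice used all 3 differences between the groups, the levels of these genes are given as a description, and no test is applied to them.

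Ovaries came from an abattoir, and oocytes with their cumulus cells were matured in culture. The samples are pools of oocytes in 3 groups with 2 libraries each: control oocytes at the usual culture temperature, oocytes heated during maturation, and oocytes heated in the same way with NMN in the medium. No NMN group without heat was analysed here, so NMN was compared on a heated background in every sample. The labels give the stage as GV (germinal vesicle, before meiosis resumes) and the time as 24 h for all 3 groups, whereas the study's methods name metaphase II oocytes, and the labels give no NMN dose.

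NMN is a precursor of NAD+, the coenzyme that carries electrons in metabolism and is consumed by sirtuins and poly(ADP-ribose) polymerases. A fully grown oocyte hardly transcribes, and its mRNA is a store laid down during growth, so that levels during maturation depend mainly on which stored messages are kept or degraded. Many stored messages carry short poly(A) tails that are lengthened in the cytoplasm when a U-rich element near the 3′ end and the AAUAAA signal are present together. Because the libraries were made from oocyte pools, fewer cells holding a message, a smaller part of it in each cell's RNA and a change in its capture during mRNA isolation cannot be told apart in these values.

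The summed FPKM of the libraries ran from 163929 to 290136, and mitochondrially encoded genes took 61.7% to 71.6% of it in the control and heat-stressed libraries and 74.2% and 74.7% with NMN. In heat-stressed replicate 1, the pseudogene LOC100513953 alone took 13.9%. From the smallest steps between low values, the libraries differed in depth from 0.732 to 1.16 times that of control replicate 1, while the absolute number of fragments is unknown. The oocyte markers GDF9 and BMP15 were at 353 to 777 and 1606 to 1940 FPKM in every library. Of 42 cumulus and granulosa cell genes in the table, 4 passed the minimum mean and 8 were listed at 0 in all 6 libraries, among them AMH, INHA, KRT8 and KRT18, and FSHR was at 0.109 FPKM or less. INHBA, a subunit of inhibins and activins, was at 16.4 and 13.2 FPKM without heat, 10.2 and 6.44 after heat stress and 4.35 and 10.2 with NMN, and GREM1, a BMP antagonist, at 2.48 and 1.73, 3.27 and 2.87, and 3.58 and 3.55 FPKM. The summed FPKM of the 42 genes was 117 to 141 in control, 82.4 to 115 in heat-stressed and 87.1 to 87.5 in NMN-supplemented libraries. Most of that sum came from genes of the list other than those named here. The low values above therefore do not show that cumulus transcripts were absent. The part of cumulus and granulosa transcripts in the differences below was not tested.

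The 3′ ends of the transcripts are shown first, because the choice did not use them and the 2 directions differed there. The U-rich elements TTTTAT and TTTTAAT were searched on the transcript strand in the last 100 bases of the longest RefSeq transcript of each protein-coding gene (build Sscrofa11.1). At least 1 element was present in 7 of the 16 protein-coding genes higher with NMN (43.8%) and in 1 of the 35 lower with NMN (2.86%), against 1025 of 4153 tested protein-coding genes (24.7%). Among the 7 genes were CNOT3, GLS2, KMT2B, NUP214, POLR2A and SETD1A, and the gene among the lower ones was RNASEH1. The signal AATAAA was about as frequent in both, in 62.5% and 57.1%, against 67.3% of all. In POLR2A and CNOT3 the element and the signal lie within 30 bases, printed here 5′ to 3′ with both in capitals.
POLR2A (chr12:52806163-52806192, plus strand): taTTTTATtttttgaagtttaAATAAAgtt
CNOT3 (chr6:55975628-55975657, minus strand): aaatatttatgAATAAAtagTTTTATatga
In POLR2A the element stands before the signal and in CNOT3 after it. A match describes the letters of the annotated transcript and does not show that a protein binds there.

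Shares were also counted beyond the chosen genes. Of the protein-coding genes with both NMN-supplemented samples above the other 4, whatever the heat-stressed level, 432 of 1250 had the element (34.6%), and of those with both below, 55 of 518 (10.6%). When only 3′ untranslated regions of at least 100 bases were counted, the shares were 7 of 14 and 1 of 30 for the chosen genes and 25.7% for all. Before the removal by name they were 7 of 21 higher (33.3%) and 5 of 52 lower genes (9.62%), so the shares lay nearer to each other with those genes included. Among the tested protein-coding genes with a 3′ untranslated region of at least 100 bases, 1003 with the element and 2903 without it, the median log2 difference between NMN-supplemented and heat-stressed oocytes was larger with the element than without it in each quintile of their transcript length, from 0.02 against −0.09 in the shortest quintile to 0.22 against 0.17 in the longest. The medians of heat-stressed minus control differed in the same direction, 0.10 with the element and 0.04 without it over all lengths. The 2 differences share the heat-stressed samples, and no test was made of either.

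**Figure D1:**
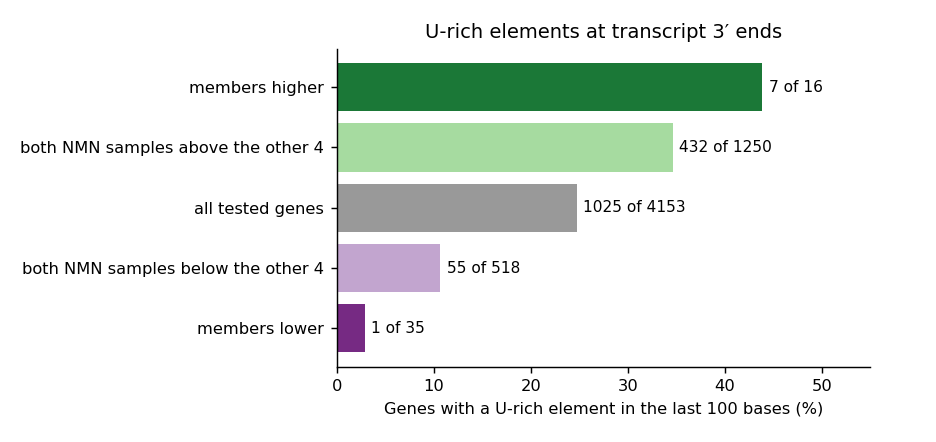
Bars give the percentage of protein-coding genes whose last 100 transcript bases hold at least 1 U-rich element, with the count beside each bar, for the chosen genes, for all genes with both NMN-supplemented samples above or below the other 4, and for all tested genes. The share runs from 43.8% in the chosen higher genes to 2.86% in the chosen lower genes, with 24.7% over all tested genes.

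Several of the higher genes encode proteins that make, process or export mRNA. POLR2A, the largest subunit of RNA polymerase II (chromosome 12, 52779833 to 52806210, plus strand), was at 13.4 and 9.53 FPKM without heat, 9.98 and 12.9 after heat stress and 15.8 and 19.0 with NMN. In this and the following sentences each pair gives replicates 1 and 2, and the pairs follow the order control, heat stress, and heat stress with NMN. The NMN-supplemented samples of POLR2A did not overlap the others, and the means with and without NMN under heat differed by 0.56 on the log2 scale. Of the other polymerase II subunits, 5 were tested and none had an unadjusted limma P under 0.05 between NMN-supplemented and heat-stressed oocytes, with log2 differences from −0.30 to 0.15. Over all tested genes, 7.15% were higher and 6.45% lower at that limit, and with Benjamini-Hochberg adjustment limma called 0 of 4713 genes in this comparison. That count was 38, with 2 of the 53 among them, when libraries were scaled to the same sum without mitochondrially encoded genes, a fit in which limma gave every gene the variance of the trend. Against control oocytes, 25.6% of the tested genes were higher and 15.7% lower with NMN at the unadjusted limit, a split that turned to 279 higher and 510 lower genes under that scaling. After adjustment 21.5% passed, which were 1015 genes, and the count fell to 0 without control replicate 2 and to 1 without either NMN-supplemented sample. The partner genes given here and below were chosen by their known complex, with earlier results in view, and all 27 groups together held 116 tested genes, of which 6 were higher and 12 lower at the unadjusted limit. Partner genes were not held to the limit on heat stress.

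The promoter of POLR2A is printed as the 250 bases before the RefSeq start, with matches of TATAAA and GGGCGG on either strand in capitals, because it holds a TATA match close to the start.
POLR2A promoter (chr12:52779583-52779832, plus strand): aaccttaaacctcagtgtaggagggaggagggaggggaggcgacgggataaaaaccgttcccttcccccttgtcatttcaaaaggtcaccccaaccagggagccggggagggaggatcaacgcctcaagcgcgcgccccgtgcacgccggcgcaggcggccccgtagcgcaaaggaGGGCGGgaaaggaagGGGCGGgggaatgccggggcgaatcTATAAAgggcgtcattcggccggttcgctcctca
The TATA match begins 34 bases before the annotated start. TATAAA was found in the promoters of 3 of the 17 higher genes (17.6%) and 4 of the 36 lower ones, against 8.07% of all tested genes with a transcript. GGGCGG, the core of the Sp1 motif, was in 47.1% and 41.7% against 52.7%. CCAAT was in 17.6% and 27.8% against 34.6%, and the E-box CACGTG in 11.8% and 2.78% against 7.59%. A single gene is 5.88% of the 17.

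KMT2B and SETD1A are both histone H3 lysine 4 methyltransferases. KMT2B was at 11.9 and 7.41 FPKM without heat, 8.69 and 10.8 after heat stress and 14.2 and 15.2 with NMN. SETD1A was at 5.002 and 4.25, 3.19 and 4.87, and 5.40 and 6.99 FPKM in the same order. The lower NMN-supplemented sample was 0.23 (log2) above the highest control in KMT2B and 0.09 above it in SETD1A. Of 38 other tested genes for histone marks, 5 were higher and 0 lower at the unadjusted limit, against 7.15% and 6.45% of all tested genes. Their median log2 difference was 0.21, against 0.08 over all tested genes. Here and below, the counts and medians of the gene lists leave out members of the 53. Among 9 tested relatives and core subunits of the 2 enzymes, ASH2L alone passed that limit, and it was lower (log2 difference −0.38, SE 0.13, limma unadjusted P = 0.0280, adjusted P = 0.350). ASH2L was also lower after heat stress than in control (log2 difference −0.51, limma unadjusted P = 0.00911).

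NUP214, a nucleoporin on the cytoplasmic face of the nuclear pore (chromosome 1, 271103838 to 271210292), had the closest NMN-supplemented samples of the higher genes. It was at 18.3 and 14.8 FPKM without heat, 16.1 and 19.6 after heat stress and 29.7 and 29.8 with NMN, 1.67 times the heat-stressed mean. The gap of 0.58 (log2) exceeded the whole range of the 4 other samples. Of 14 other tested nucleoporins, NUP133, NUP153 and NUPL2 were higher and 0 lower at the unadjusted limit, with a median log2 difference of 0.26. The shares over all tested genes were 7.15% and 6.45%. The log2 difference of NUP133 was 0.50 (SE 0.17, limma unadjusted P = 0.0277, adjusted P = 0.350). NUP88, which binds NUP214, had a log2 difference of 0.30 and did not pass (limma unadjusted P = 0.149).

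SRRM2, a spliceosome scaffold of nuclear speckles, was the most abundant of the higher genes, at 37.8 and 21.7 FPKM without heat, 25.2 and 36.4 after heat stress and 42.6 and 51.2 with NMN. Control replicate 1 came within 0.17 (log2) of the NMN-supplemented samples. CNOT3, a subunit of the CCR4-NOT complex that shortens poly(A) tails, was at 3.77 and 2.95, 2.203 and 3.45, and 4.11 and 4.79 FPKM. Of 7 other tested CCR4-NOT subunits, none passed the unadjusted limit, with log2 differences from −0.01 to 0.30. Of 46 tested genes for mRNA decay and m6A, 5 were higher and 2 lower. Of 109 tested genes for splicing and RNA processing, 12 were higher and 2 lower. Both counts stand beside 7.15% higher and 6.45% lower over all tested genes.

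THRA, the thyroid hormone receptor alpha, and INSM1, a zinc finger repressor of endocrine and neural cells, are DNA-binding factors at low level. THRA was at 2.62 and 1.34 FPKM without heat, 1.83 and 1.86 after heat stress and 2.92 and 3.28 with NMN. INSM1 was at 2.44 and 1.78, 1.42 and 3.68, and 3.81 and 4.49 FPKM. In INSM1 heat-stressed replicate 2 nearly reached the NMN-supplemented samples, 0.04 below them on the log2 scale. The log2 difference of INSM1 was 0.54 with all samples, 0.14 without heat-stressed replicate 1 and 1.09 without heat-stressed replicate 2.

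Other higher genes act in signalling. PIAS3, a SUMO E3 ligase and STAT3 inhibitor, was at 1.31 and 1.05 FPKM without heat, 0.883 and 1.40 after heat stress and 2.59 and 2.86 with NMN, a ratio of NMN-supplemented to heat-stressed means of 2.39. The NMN-supplemented samples were well apart from the others, and PIAS3 is 1 of 3 higher genes, with NUP214 and ALG2, whose gap exceeded the range of the other 4 samples. None of 5 other tested PIAS and SUMO genes passed the unadjusted limit.

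CXCR4, the receptor of the chemokine CXCL12, had the largest log2 difference of the higher genes, 0.86. Its levels were 1.91 and 1.38 FPKM without heat, 0.376 and 2.60 after heat stress and 2.97 and 4.06 with NMN. The heat-stressed samples were the lowest and the third highest of the 6, and the log2 difference was 0.32 without heat-stressed replicate 1, which is under the limit of 0.5, and 1.71 without heat-stressed replicate 2. PPP1R15B, which directs protein phosphatase 1 to eIF2alpha, was at 0.960 and 0.580, 0.608 and 0.863, and 1.13 and 2.31 FPKM, and most of its difference lay in NMN-supplemented replicate 2. Without that replicate its log2 difference moved from 0.65 to 0.30. IL28B, an interferon lambda gene, was at 3.57 and 5.201, 3.22 and 5.585, and 7.68 and 7.32 FPKM.

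The remaining higher genes serve the secretory pathway and glutamine use. ALG2, a mannosyltransferase of N-glycan assembly, was at 1.17 and 1.12 FPKM without heat, 1.22 and 1.56 after heat stress and 3.07 and 2.25 with NMN. SNX27, a sorting nexin that works with retromer, was at 2.98 and 1.71, 2.24 and 3.03, and 3.99 and 4.57 FPKM. TGOLN2, a trans-Golgi membrane protein in other mammals and annotated here as a non-coding RNA, was at 21.4 and 15.4, 15.5 and 19.0, and 21.9 and 28.2 FPKM. The NMN-supplemented and control samples of TGOLN2 were 0.03 (log2) from touching. GLS2, a mitochondrial glutaminase, was at 24.2 and 21.0, 22.2 and 26.4, and 37.3 and 32.5 FPKM. It was the higher gene closest to the fold limit on the inside, with a log2 difference of 0.51.

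Just outside that limit in the higher direction lay EDRF1, DYNC2LI1 and UFD1, with log2 differences of 0.50, 0.49 and 0.49, against 0.51 for GLS2, CNOT3 and TGOLN2. SEC16A and FZD4 met every other condition and missed the limit on heat stress, with heat-stressed minus control differences of −0.20 and 0.23. In the lower direction MIS12, PSKH1 and ERP29 stood at −0.50, next to CACYBP at −0.50 and GTF3C6 and LMOD3 at −0.51. TMEM200C and TRIM32 missed the limit on heat stress with −0.20 and 0.20. No break in the differences marks the limits, as the plot of the 2 differences shows.

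**Figure D2:**
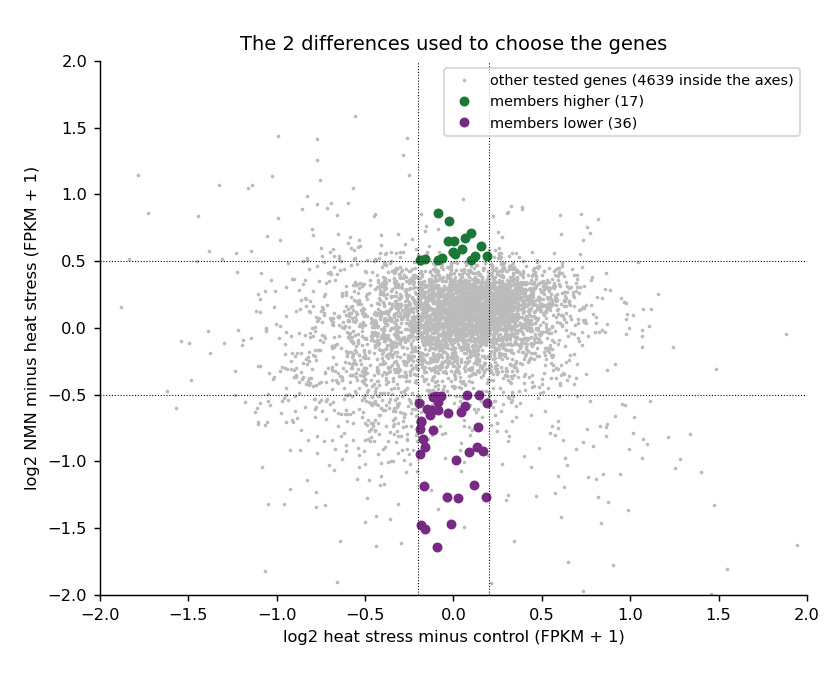
Each point is a tested gene, with the log2 difference of heat-stressed minus control means on the x axis and of NMN-supplemented minus heat-stressed means on the y axis, both from FPKM + 1, and dotted lines at the limits of 0.2 and 0.5. The 17 green and 36 purple points are the chosen genes, and grey points beside them are genes that failed the limits, the separation of samples or the removal by name.

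HSPA8, the constitutive HSP70 chaperone of the cytosol and an uncoating factor of clathrin vesicles, was the second most abundant protein-coding gene among the lower ones. It was at 40.1 and 46.3 FPKM without heat, 37.7 and 39.0 after heat stress and 15.0 and 17.6 with NMN, so the heat-stressed mean was 2.35 times the NMN-supplemented one. Both NMN-supplemented samples lay far below the others, with a gap of 1.06 on the log2 scale, while control and heat-stressed samples were close together. Of 14 tested HSP70, HSP90 and co-factor genes, HSPA6, HSPH1 and HSP90AA1 were lower and 0 higher at the unadjusted limit. The median log2 difference of the 14 was −0.03. Among 36 tested chaperone and heat shock genes the same 3 were lower and 0 higher, with a median of −0.03. The shares over all tested genes were 6.45% lower and 7.15% higher. HSPA6 was higher after heat stress than in control (log2 difference 0.43, limma unadjusted P = 0.0495). HSP90AA1, the inducible cytosolic HSP90, was at 60.0 and 57.5 FPKM without heat, 42.6 and 41.3 after heat stress and 23.5 and 33.1 with NMN (log2 difference of NMN-supplemented minus heat-stressed −0.57, SE 0.17, limma unadjusted P = 0.0188, adjusted P = 0.339). HSPA5, the HSP70 of the endoplasmic reticulum, and HSP90AB1 had log2 differences of −0.30 and 0.29 and did not pass (limma unadjusted P = 0.0694 and 0.166).

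The promoter of HSPA8 is printed because heat shock factors bind repeats of GAA and its complement. Capitals mark the box CCAAT, the Sp1 core GGGCGG and GAANNTTC, which is GAA followed by its complement TTC, each searched on both strands.
HSPA8 promoter (chr9:49986761-49987010, minus strand): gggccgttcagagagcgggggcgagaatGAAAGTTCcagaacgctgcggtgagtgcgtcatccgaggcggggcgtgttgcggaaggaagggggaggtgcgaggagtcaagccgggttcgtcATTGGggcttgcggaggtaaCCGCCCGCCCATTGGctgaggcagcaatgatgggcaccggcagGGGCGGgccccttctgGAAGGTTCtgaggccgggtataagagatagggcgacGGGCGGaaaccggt
GAANNTTC begins 222 and 50 bases before the start, CCAAT 129 and 99 bases before it, and 4 GGGCGG matches lie from 109 to 14 bases before it, of which the first 2 share letters. GAANNTTC was present in 5.88% of the higher, 5.56% of the lower and 5.28% of all tested genes' promoters, and it was added after the data had been seen.

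Some of the lower genes are known from oocytes and early embryos. OTX2, a homeobox factor of oocytes and of the anterior embryo (chromosome 1, 186028575 to 186039026, minus strand), was at 20.9 and 23.5 FPKM without heat, 23.1 and 20.1 after heat stress and 7.33 and 9.44 with NMN. The control and heat-stressed samples lay together and the NMN-supplemented ones far below, with a log2 difference of −1.27. NLRP2, a maternal-effect gene of the subcortical complex, was at 6.55 and 6.56, 5.05 and 6.27, and 3.47 and 2.70 FPKM. Of 8 other tested NLRP and subcortical complex genes, NLRP7, NLRP9 and PADI6 were lower and 0 higher at the unadjusted limit. NLRP9 had a log2 difference of −1.08 (SE 0.18, limma unadjusted P = 0.00118, adjusted P = 0.222). NLRP7 and PADI6 were also lower after heat stress than in control (log2 differences −0.43 and −0.84, limma unadjusted P = 0.0229 and 0.0148). In that comparison NLRP9 did not pass (log2 difference −0.21, limma unadjusted P = 0.289). Of 44 tested oocyte and early embryo genes, 1 was higher and 7 were lower between NMN-supplemented and heat-stressed oocytes, where 7.15% and 6.45% of all tested genes passed. Between heat-stressed and control oocytes 3 were higher and 10 lower, where 12.7% and 10.1% of all tested genes passed. The list's median log2 differences were −0.14 and −0.23 in the 2 comparisons.

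NANOS1, an RNA-binding partner of Pumilio that represses translation in germ cells, was at 30.1 and 18.1 FPKM without heat, 35.3 and 13.3 after heat stress and 11.135 and 12.4 with NMN. Its heat-stressed samples were the highest and the third lowest of the 6. Without heat-stressed replicate 1, the log2 difference moved from −0.99 to −0.17. GJA10, a connexin, was at 11.9 and 12.3, 11.3 and 15.5, and 5.48 and 9.72 FPKM. WNT2B, a WNT ligand, was at 1.56 and 0.992, 1.60 and 1.40, and 0.231 and 0.465 FPKM.

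Several lower genes encode mitochondrial and iron-handling proteins. LIPT1, which transfers lipoate to the 2-oxoacid dehydrogenases, had the largest log2 difference of all, −1.64. Its levels were 3.22 and 3.23 FPKM without heat and 2.42 and 3.50 after heat stress, while it was listed at 0 in NMN-supplemented replicate 1 and at 0.543 in replicate 2. METTL12, a mitochondrial methyltransferase, was at 1.41 and 4.19 without heat and 1.64 and 3.03 after heat stress, and was listed at 0 and 0.397 with NMN. Neither gene overlapped between NMN-supplemented and other samples, and a value listed at 0 sets no ratio. GLRX5, a glutaredoxin of iron-sulphur cluster assembly, was at 1.78 and 1.93, 1.99 and 1.26, and 0.859 and 0.568 FPKM. Of 3 other tested iron-sulphur and lipoate assembly genes, none passed the unadjusted limit.

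FTH1, the ferritin heavy chain that oxidises and stores iron, was at 5.28 and 5.98 FPKM without heat, 4.23 and 6.24 after heat stress and 2.98 and 3.16 with NMN. The ferritin light chain FTL, which was not among the 53 because its heat-stressed minus control difference of −0.49 was outside the limit, was at 338 and 469, 313 and 257, and 136 and 144 FPKM. Its NMN-supplemented minus heat-stressed log2 difference was −1.01 (SE 0.19, limma unadjusted P = 0.00252, adjusted P = 0.222), beside −0.61 for FTH1. NCOA4, the other tested partner gene for iron storage and uptake, did not pass the unadjusted limit (log2 difference −0.09). Of 28 tested redox defence genes, 1 was higher and 4 were lower at the unadjusted limit, against 7.15% and 6.45% of all tested genes. Their median log2 difference was 0.07.

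HIGD2A, a respiratory supercomplex factor, was at 29.3 and 27.2 FPKM without heat, 33.2 and 16.7 after heat stress and 12.9 and 14.2 with NMN. Without heat-stressed replicate 1, its log2 difference moved from −0.83 to −0.28. TIMM10B, a chaperone of the mitochondrial intermembrane space, was at 18.0 and 16.7, 15.3 and 16.3, and 8.26 and 11.08 FPKM, and none of 5 other tested TIM22 pathway genes passed the unadjusted limit. TMEM186, a complex I assembly factor, was at 4.08 and 3.26, 4.24 and 4.35, and 0.860 and 1.53 FPKM. NGRN, needed for the mitochondrial ribosome, was at 3.17 and 3.63, 3.27 and 3.35, and 1.41 and 2.14 FPKM. The NMN-supplemented samples of TIMM10B, TMEM186 and NGRN stood at least 0.41 (log2) below all others. Of 21 tested nuclear-encoded respiration genes 1 was higher and 1 lower at the unadjusted limit, and of 42 genes for mitochondrial dynamics, import and genome 4 were higher and 4 lower. The shares over all tested genes were 7.15% and 6.45%.

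The endoplasmic reticulum contributed PIGC, EMC4, TRAPPC5 and RETREG3. PIGC, a subunit of the enzyme that begins GPI anchor synthesis, was at 10.1 and 14.6 FPKM without heat, 13.3 and 8.61 after heat stress and 2.77 and 3.65 with NMN, a heat-stressed mean 3.41 times the NMN-supplemented one. EMC4, a subunit of the membrane protein insertase, was at 2.09 and 4.41, 3.24 and 2.35, and 0.799 and 1.29 FPKM. TRAPPC5, a subunit of the vesicle tethering complex TRAPP, was at 1.28 and 1.88 without heat and 1.64 and 2.15 after heat stress, and with NMN at 1.06 and listed at 0. RETREG3, a reticulophagy receptor, was at 6.68 and 5.47, 5.82 and 5.47, and 3.25 and 3.81 FPKM. In PIGC and RETREG3 all 4 other samples were well above the NMN-supplemented ones, whereas the log2 difference of TRAPPC5 moved from −0.92 to −0.49 without the library at 0.

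Of 87 tested genes for the endoplasmic reticulum, secretion and glycosylation, 9 were higher and 5 lower with NMN at the unadjusted limit. The shares over all tested genes were 7.15% and 6.45%. In that list, the 2 genes outside the 53 with the largest differences were CALR and SRPRA. Only genes that passed without overlap between NMN-supplemented and heat-stressed samples were ranked. CALR, a calcium-binding chaperone of the endoplasmic reticulum, was at 8.68 and 12.3 FPKM without heat, 5.73 and 9.48 after heat stress and 3.65 and 1.98 with NMN (log2 difference −1.18, SE 0.32, limma unadjusted P = 0.0120, adjusted P = 0.289). SRPRA, the receptor subunit for the signal recognition particle, was at 3.45 and 5.54, 3.09 and 4.17, and 0.861 and 1.70 FPKM. EMC6, another subunit of the insertase, was lower by more than EMC4, with a log2 difference of −1.76 (SE 0.38, limma unadjusted P = 0.00428, adjusted P = 0.222), and TRAPPC4 was lower by 0.64 (unadjusted P = 0.00945). Among 3 other tested subunits of the insertase, EMC6 alone passed the unadjusted limit, and EMC8 and MMGT1 had log2 differences of −0.36 and 0.34. TRAPPC4 alone passed among 6 other tested TRAPP subunits, whose median log2 difference was 0.10. EMC6 and TRAPPC4 were already lower after heat stress than in control, unlike the 53 genes. Their heat-stressed minus control log2 differences were −1.13 and −0.64 (limma unadjusted P = 0.0265 and 0.00941).

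Nuclear genes among the lower ones were mostly of low level. DSN1, a kinetochore subunit of the MIS12 complex, was at 1.20 and 1.18 FPKM without heat, 1.41 and 1.17 after heat stress and 0.595 and 0.457 with NMN. Its partner MIS12, which missed the fold limit, was at 21.8 and 18.1, 17.6 and 19.4, and 11.07 and 14.5 FPKM, with a log2 difference of −0.51 in the limma fit of sample values (unadjusted P = 0.0265, adjusted P = 0.350). MIS12 alone passed the unadjusted limit among 5 other tested subunits of the MIS12 and NDC80 complexes, whose median log2 difference was 0.16. RNASEH1, which digests RNA paired with DNA, was at 0.863 and 1.37, 1.76 and 1.06, and 0.426 and 0.832 FPKM. Its upper NMN-supplemented sample was 0.02 (log2) below the lowest control, the smallest gap of the 53. DDX24, a nucleolar RNA helicase, was at 1.49 and 1.60, 1.23 and 1.22, and 0.333 and 0.676 FPKM.

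INO80E of the INO80 remodelling complex, GTF3C6 of the polymerase III factor TFIIIC, LAGE3 of the tRNA-modifying KEOPS complex and CACYBP, a calcyclin-binding protein, had means under 3 FPKM in all groups. INO80E was at 1.72 and 3.03 FPKM without heat, 2.18 and 1.90 after heat stress and 0.929 and 1.07 with NMN. GTF3C6 was at 1.99 and 1.68, 2.61 and 1.36, and 1.26 and 0.948 FPKM. Without heat-stressed replicate 1, the log2 difference of GTF3C6 moved from −0.51 to −0.17 and that of CACYBP from −0.50 to −0.08. While GTF3C6 was lower with NMN than after heat stress, GTF3C1 and GTF3C4 were higher (log2 differences 0.32 and 0.48, limma unadjusted P = 0.0471 and 0.0192). Unlike GTF3C6, GTF3C1 and GTF3C4 were lower after heat stress than in control (log2 differences −0.40 and −0.40, limma unadjusted P = 0.0198 and 0.0388). With NMN they lay near control, with NMN-supplemented minus control log2 differences of −0.09 and 0.08.

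RN18S, the 18S ribosomal RNA, was the most abundant of the 53, at 375 and 597 FPKM without heat, 716 and 316 after heat stress and 256 and 284 with NMN. It is not an mRNA, and the heat-stressed samples were the highest and the third lowest of the 6. Without heat-stressed replicate 1, its log2 difference moved from −0.93 to −0.23.

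Receptors and other genes complete the lower set. GPR151, an orphan receptor and the most abundant protein-coding gene among the lower ones, was at 55.5 and 43.4 FPKM without heat, 44.5 and 49.5 after heat stress and 35.3 and 29.97 with NMN. GPR32, another G-protein-coupled receptor, was at 9.36 and 10.6, 6.17 and 13.5, and 2.91 and 2.94 FPKM. The NMN-supplemented samples of GPR32 were alike, while the heat-stressed ones were the lowest and the highest of the 4 other samples. CCL24, a chemokine of eosinophils, was at 1.76 and 2.06, 1.4995 and 2.50, and 0.795 and 1.07 FPKM.

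ANKS4B, a scaffold of microvilli, was at 3.88 and 4.51 FPKM without heat, 4.56 and 4.68 after heat stress and 1.57 and 1.40 with NMN. TMEM160 was at 2.18 and 2.37, 2.71 and 1.94, and 0.640 and 0.110 FPKM. Both had heat-stressed samples at the control level and NMN-supplemented ones at least 0.84 (log2) below all others. The remaining lower genes were MBLAC1, a metallo-beta-lactamase domain protein, DTX2, a ubiquitin ligase of Notch signalling, LMOD3, an actin nucleator of muscle, and MAGEF1 and IQCC. Their log2 differences ran from −0.95 in MBLAC1 to −0.51 in LMOD3, and their means over the 6 samples were all under 4 FPKM.

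Over all 53 genes, levels and margins differed by direction. The mean FPKM had a median of 3.55 in the higher and 2.34 in the lower genes, with ranges of 1.07 to 35.8 and 1.002 to 424. The median log2 difference of NMN-supplemented minus heat-stressed means was 0.56 and −0.75, against 0.08 over all tested genes. Without heat-stressed replicate 1, 11 of the 17 higher and 8 of the 36 lower genes came under the fold limit of 0.5, and 9 and 5 did so without NMN-supplemented replicate 2. The gap between the nearest NMN-supplemented and other samples exceeded the range of the 4 other samples in 3 of the 17 higher and 17 of the 36 lower genes. Of the 53, 20 lie in a locus that is listed with another gene, 8 higher and 12 lower. Among them are PIAS3, POLR2A, THRA, CNOT3 and GLS2 of the higher genes and LIPT1, EMC4 and RN18S of the lower ones. For those, reads of the neighbouring gene could not be told apart here.

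**Figure D3:**
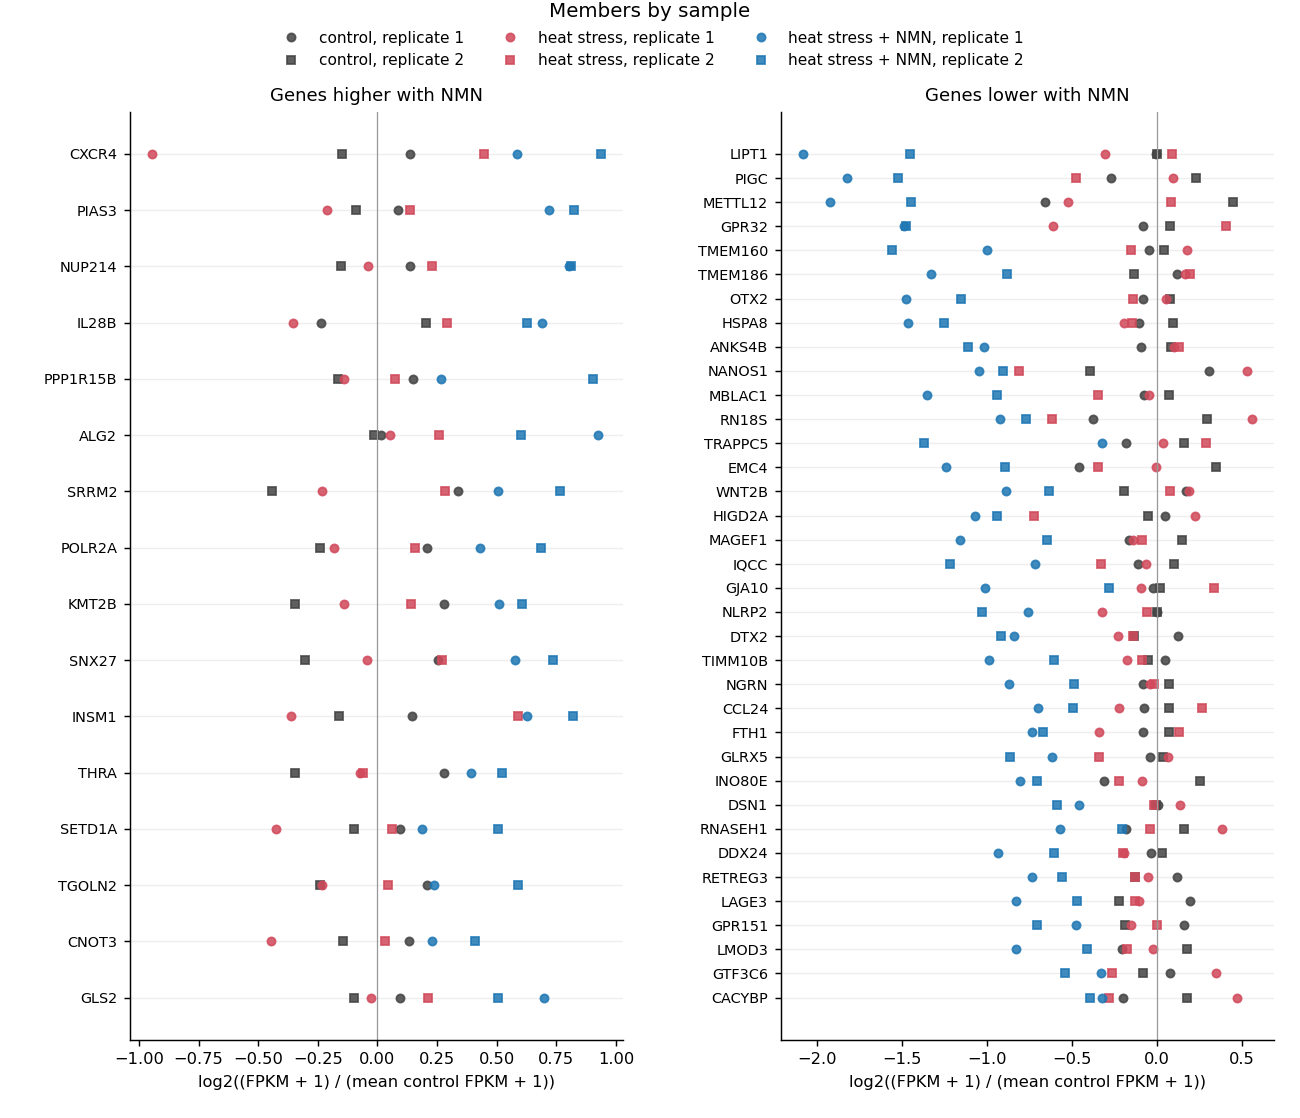
Each row is a gene, with 1 higher gene not drawn, and each point a library, placed by its log2 difference from the control mean (FPKM + 1), with circles for replicate 1 and squares for replicate 2 of control (grey), heat-stressed (red) and NMN-supplemented (blue) oocytes. The blue points lie outside the other 4 in every row by the choice of genes, widely in NUP214, HSPA8 and OTX2 and narrowly in TGOLN2, RNASEH1 and CACYBP.

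The 2 directions also differed in transcript length, which the choice did not use. The median length of the longest annotated transcript was 6172 bases in the higher and 2090 in the lower genes, against 2987 over the tested genes with a transcript. The median number of exons was 14 and 3, against 6, and 4 of 17 higher (23.5%) and 19 of 36 lower genes (52.8%) had at most 3 exons, against 25.7%. GC content of the transcripts was above that of all tested genes in both, with medians of 56.8% and 53.2% against 47.6%. Of the higher genes, 11 of 17 fell in the longest quintile of the tested genes, and 23 of the 36 lower genes in the 2 shortest quintiles, of which 12 in the shortest.

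Transcript length moved with the measured differences across all tested genes. From the shortest to the longest quintile, the median NMN-supplemented minus heat-stressed log2 difference went from −0.08 through 0.03, 0.07 and 0.12 to 0.17. The heat-stressed minus control median went likewise from −0.14 to 0.17. When the trend with length and GC content was removed, 5 of the 17 higher and 25 of the 36 lower genes still met the rule. The part of length in the differences of single genes was not tested.

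**Figure D4:**
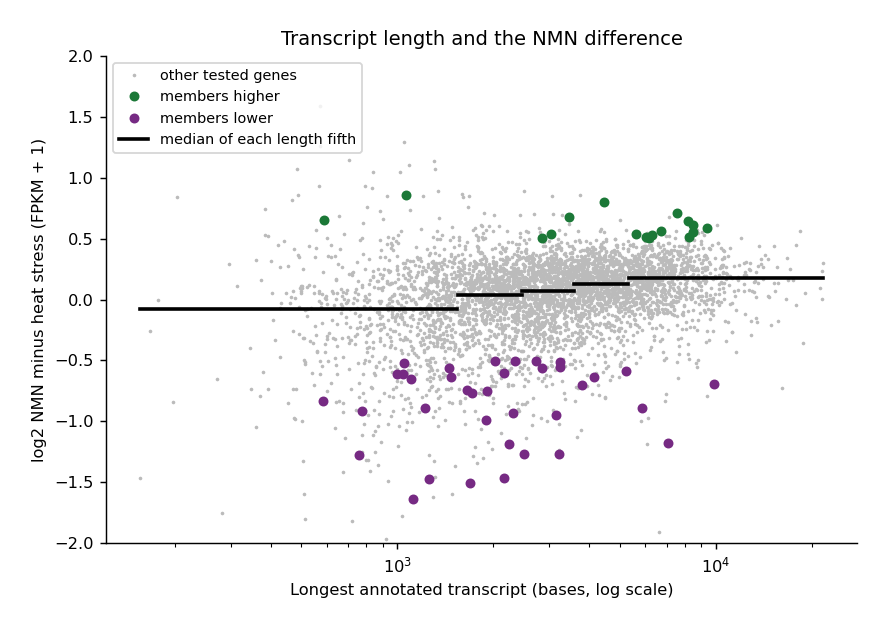
Points are tested genes by the length of their longest annotated transcript in bases (log axis) and their log2 difference of NMN-supplemented minus heat-stressed means, and black lines are the medians of 5 equal groups by length. The higher genes (green) lie mostly to the right, with 11 of 17 in the longest group, and the lower genes (purple) mostly to the left.

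The order of the 2 replicates within the control and heat-stressed groups was not used in the choice either. In 16 of the 17 higher genes, control replicate 1 was above control replicate 2 and heat-stressed replicate 2 above heat-stressed replicate 1 (94.1%), against 28.5% of all tested genes and 50.5% of the longest quintile. IL28B was the exception, with control replicate 2 the higher. The median differences in these genes were 0.31 between the control and 0.33 between the heat-stressed replicates, beside 0.56 between NMN-supplemented and heat-stressed means. In the lower genes the same order was found in 4 of 36 and the opposite order in 13 of 36 (36.1%), against 26.0% of all tested genes. Of the 8 higher genes removed by name, 3 had the first order (37.5%) and 3 the opposite. Of the 32 lower genes removed by name, 4 had the first order and 13 the opposite. For the 17 higher genes kept by name, the libraries of control replicate 1 and heat-stressed replicate 2 thus mostly lay nearest to the NMN-supplemented ones. The mitochondrial share of FPKM was higher in control replicate 1 (66.4%) than in replicate 2 (61.7%) and in heat-stressed replicate 2 (71.6%) than in replicate 1 (62.4%), and it was highest with NMN. In heat-stressed replicate 1, however, LOC100513953 took 13.9% of the FPKM, against 0.0% in the other libraries. With that entry left out of the sum, the share of heat-stressed replicate 1 no longer lies below that of replicate 2. Whether that share has a part in the levels of these genes was not tested.

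**Figure D5:**
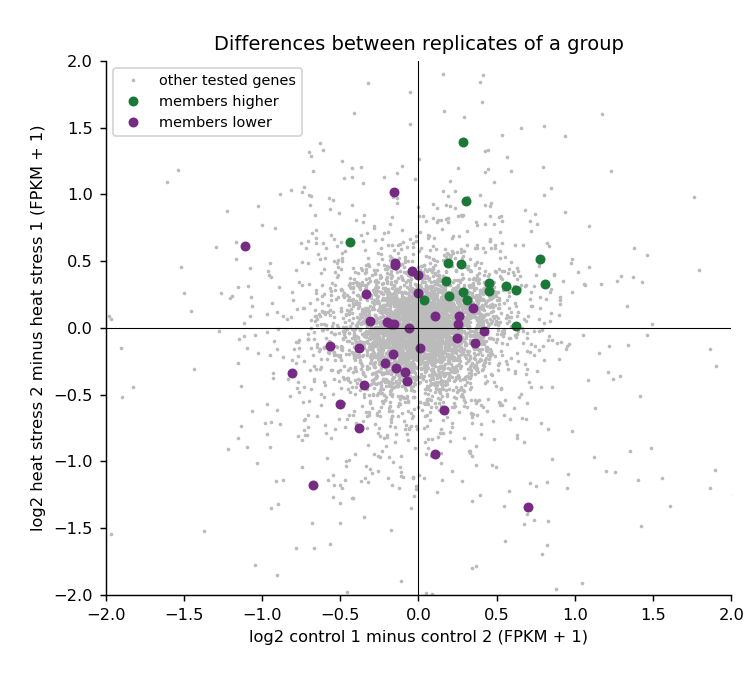
Each point is a tested gene, with the log2 difference of control replicate 1 minus replicate 2 on the x axis and of heat-stressed replicate 2 minus replicate 1 on the y axis (FPKM + 1). Of the 17 higher genes (green), 16 lie in the upper right, where 28.5% of all tested genes lie, and the lower genes (purple) are spread around the centre.

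Among 36 gene lists chosen by function, 20 held at least 1 of the 53 genes, and 27 of the 53, of which 23 lower, were in no list. No list held more than 3 of them. Genes of NAD+ synthesis and use were not among them. Of 11 tested genes of that list, PARP14, a mono-ADP-ribosyltransferase, was higher at the unadjusted limit, with 2.48 and 1.88 FPKM without heat, 2.68 and 3.50 after heat stress and 4.44 and 4.59 with NMN (log2 difference 0.44, SE 0.16, limma unadjusted P = 0.0356, adjusted P = 0.354). NMNAT1, which converts NMN to NAD+ in the nucleus, was at 1.59 and 1.21 FPKM without heat, 2.25 and 1.89 after heat stress and 2.196 and 1.77 with NMN, and NAMPT, which makes NMN, stayed under the minimum with 0.506 to 0.732 FPKM. SIRT1, an NAD+-dependent deacetylase, was at 1.92 and 1.86, 2.69 and 2.84, and 2.36 and 2.75 FPKM.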

How the data were processed

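RNA from 6 samples of porcine oocytes was sequenced, with 2 samples in each of 3 groups taken from their labels. Per the methods, the authors trimmed reads with cutadapt and aligned them to susScr11 with tophat2, and the submitters' processing notes name Cufflinks 2.2.1, Cuffnorm and Cuffdiff. The authors deposited FPKM values for 29861 genes in each sample. Their table also holds the authors' log2 fold changes and p-values of each comparison, which were not used here, nor were their lists of called genes.

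A pseudocount of 1 FPKM was added before taking log2, so differences of low genes come out smaller than their FPKM ratios. The rule for the 53 genes was applied to group means, and 4713 genes passed a minimum mean of 1 FPKM. limma 3.58.1 in R 4.3.3 was fitted to these genes in all 6 samples with 3 groups, empirical Bayes moderation with a trend and Benjamini-Hochberg adjustment, and was used for counts over all genes and for genes outside the 53. In simulated data for NMN-supplemented minus heat-stressed oocytes with 4713 genes, of which 200 were changed, an unadjusted P under 0.05 was given to 98% of genes changed by 1 and 99% of those changed by 2 (log2), and to 5.25% of unchanged genes. Whether such shares hold for the spread between real oocyte pools was not tested. In the measured data, 0 of 4713 genes had an adjusted limma P under 0.05 in that comparison. Nothing says whether the 2 samples of a group are separate collections, so P-values measure only the spread between them. The absolute depth is unknown without fragment counts, and no counting interval is given.

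Transcripts, promoters (250 bases before the start) and 3′ ends (last 100 bases) came from the longest RefSeq transcript on Sscrofa11.1, which was found for 4547 of the tested genes. Scripts used Python 3.11.15 with pandas 2.3.3 and pysam 0.24.0. The 53 genes, the 36 gene lists, the partner genes and the tests were chosen with earlier results of these data known. Genes were named by a rule: in each direction the 12 largest differences, the 3 genes on either side of the fold limit, the 6 most abundant and up to 5 per gene list, and up to 2 other genes of a list with at least 3 of the 53. The other genes of the 53, genes beside the limit on heat stress, the partner genes and the NAD+ genes were named after their values were seen. A gene among the 53 is counted but not reported by name here. Alternatives were other pseudocounts, minimum means, scalings, limits, a replicate block and leaving out each sample.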

Additional observations from a re-analysis of the deposited data

How the results depend on the processing

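Because the choice placed both NMN-supplemented samples beyond the heat-stressed ones, the direction of the 53 differences is no sign of stability. The numbers of genes that met the rule moved. The 17 higher genes became 51 with a pseudocount of 0.1 FPKM, 7 with a minimum mean of 5 FPKM, 0 with a fold limit of 1, and 362 when libraries were scaled to the same sum without mitochondrially encoded genes. The counts are not of the same genes throughout, and with that scaling 10 of the 17 were among the 362. That scaling moved the median NMN-supplemented minus heat-stressed log2 difference of all tested genes from 0.08 to 0.32, and with LOC100513953 and RN18S also left out of the sum, which was chosen after seeing the data, the median was 0.11 and 29 genes were higher. The 36 lower genes became 61 with a minimum mean of 0.1 FPKM, 12 with 5 FPKM, 8 with the scaling without mitochondrially encoded genes, 14 with a limit of 0.1 on heat stress, 9 with a fold limit of 1, and 63 with the trend in transcript length and GC content removed, also chosen after seeing the data. The 8 genes with the scaling without mitochondrially encoded genes held 4 of the 36. After quantile normalization 9 of the 17 and 31 of the 36 genes still met the rule, and after scaling to the same median 12 and 36. The cause of these moves was not tested, apart from the shift in the median. Leaving out 1 sample gave 15 to 73 higher and 36 to 83 lower genes, with the most without heat-stressed replicate 2 (73 and 83), then without NMN replicate 1 (29 and 63) and, for higher genes, without NMN replicate 2 (30). Without heat-stressed replicate 1, 3 of the 17 were among 23 higher genes and 19 of the 36 among 53 lower ones. TMEM160, OTX2 and DSN1 met the rule whichever sample was left out, and no higher gene did. None of these 3 met it with the scaling without mitochondrially encoded genes. DSN1 also failed it after quantile normalization, and TMEM160 with the trend in length and GC content removed. Genes with an unadjusted limma P under 0.05 numbered 641 between NMN-supplemented and heat-stressed oocytes, 1948 between NMN-supplemented and control and 1074 between heat-stressed and control. With a minimum mean of 0.1 FPKM they were 1161, 3236 and 1865, with 5 FPKM 266, 791 and 468, and with the scaling without mitochondrially encoded genes 269, 789 and 562. With 1 sample left out, which leaves a group with a lone sample assumed to vary like the others, they ran from 327 to 701, from 1233 to 1941 and from 648 to 1015, with the largest moves without NMN replicate 1 (327 and 1233), NMN replicate 2 (383), heat-stressed replicate 1 (418) and control replicate 2 (648). The split of calls between NMN-supplemented and heat-stressed oocytes was 337 higher and 304 lower, 218 and 310 after quantile normalization, 275 and 336 after scaling to the same median, and 182 and 87 with the scaling without mitochondrially encoded genes. That scaling gave 279 higher and 510 lower calls against 1208 and 740 between NMN-supplemented and control oocytes, and 34 and 528 against 598 and 476 between heat-stressed and control. After adjustment, the 1015 genes called between NMN-supplemented and control oocytes became 86 with a minimum mean of 0.1 FPKM, 546 with 5 FPKM, 281 with that scaling, 445 with the replicate block, 360 with the trend in length and GC content removed, and 0 to 798 with 1 sample left out. The 0 adjusted calls between NMN-supplemented and heat-stressed oocytes became 38 with that scaling, 2 with the trend removed and 0 to 2 with 1 sample left out, and the 0 between heat-stressed and control became 84 with that scaling and 0 to 1 with 1 sample left out. With the replicate number as a block the counts were 527, 1815 and 937. The deviations of same-numbered samples had correlations of −0.032, 0.00805 and −0.0139 across genes, so the numbers were not taken to pair samples. With 2 samples a group and an unknown depth, differences of genes near 1 FPKM rest on few fragments.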
